A study of Homo sapiens with 2 samples.

Results

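Fibronectin, 2 collagen chains and 7 integrin subunits were followed in K562 cells with little RNA of the cohesin subunit SMC1A. The 10 genes are FN1, COL3A1, COL1A2, ITGA4, ITGA5, ITGA6, ITGAV, ITGB1, ITGB5 and ITGB7, out of 62700 genes in the table. They were chosen by symbol, as matrix genes and the integrins that bind matrix or vascular ligands, from a comparison whose results were already known. Their differences between the libraries are therefore a description. K562 is a human chronic myeloid leukemia line that grows in suspension. All cells, those with the SMC1A guide and those with the control guide, expressed dCas9-KRAB, a nuclease-dead Cas9 joined to a repressor domain. Both bear the genotype label E50 with dCas9-KRAB and are titled WT, and the labels do not explain E50. Each guide came on a lentivirus with a blue fluorescent marker. Cells were kept in 1 µg/ml puromycin from day 2 to day 6, and cells bright in blue were sorted at harvest. RNA with a poly(A) tail was then sequenced. The series concerns distal genes that share 1 enhancer inside a small topological domain, and cohesin is known to form such domains by extruding DNA loops.

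Fibronectin and fibrillar collagens are secreted proteins that form fibres around cells. Integrins are receptors of 1 alpha and 1 beta chain that bind such proteins outside the cell and the actin skeleton inside it. ITGA5 with ITGB1 forms the classical fibronectin receptor, through which K562 cells are known to attach. ITGAV pairs with ITGB1 or ITGB5 and binds vitronectin and fibronectin. ITGA4 pairs with ITGB1 or ITGB7 and binds VCAM1, MADCAM1 and an alternatively spliced stretch of fibronectin, and ITGA6 pairs with ITGB1 to bind laminin.

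With 1 library per guide the differences have no replicate check and no p-value, and all intervals are 95% intervals of counting error alone. The library with the SMC1A guide held 16864207 counts and the control library 18349209. Levels are CPM, counts per 1000000 counts of the TMM-scaled library, and 3 counts, the most that a count of 0 allows, are 0.170 CPM with the SMC1A guide and 0.171 CPM with the control guide. SMC1A itself stood at 16.3 CPM (288 counts) with its guide and 460.4 CPM (8077 counts) with the control guide. A gene was called higher or lower when it had at least 100 counts in both libraries together and a log2 ratio past 2-fold, SMC1A guide over control guide. Of 11319 such genes, 5.12% were called higher and 2.31% lower (579 and 262 genes, or 766 and 194 when scaled by library totals).

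Of the 10 genes, 8 had at least 100 counts, and 3 of these were called higher with the SMC1A guide: COL3A1, FN1 and ITGAV. None of the 8 was called lower. ITGB1, ITGB5 and ITGA5 lay above their control level by less than 2-fold, and ITGA4 and COL1A2 below it by less than 2-fold. ITGA6 and ITGB7 were under 100 counts and were not called. COL3A1 passed the filter only through its counts in the library with the SMC1A guide. The background of 5.12% cannot be read against the 3 of 8, because the genes were picked from this comparison.

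**Figure D1:**
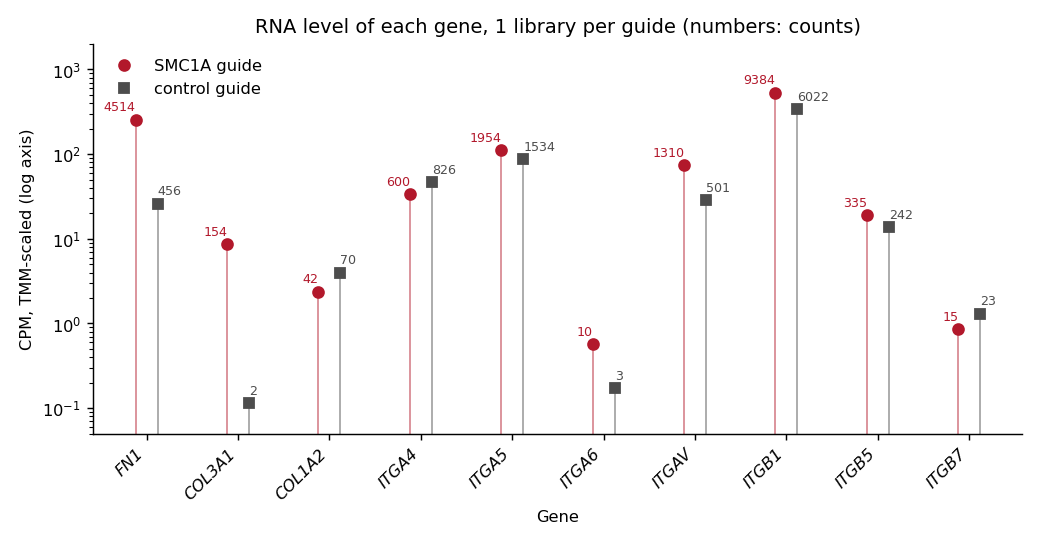
RNA level of each of the 10 genes in CPM on a log axis, with red circles for the SMC1A guide and grey squares for the control guide, and the raw count beside each point (1 library per guide). FN1 shows 4514 counts against 456, COL3A1 154 against 2 and ITGAV 1310 against 501, while ITGA4, COL1A2 and ITGB7 sit lower with the SMC1A guide.

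FN1 (ENSG00000115414.21; chromosome 2, 215360440 to 215436172, minus strand, GRCh38) encodes fibronectin, the dimeric glycoprotein that carries the RGD motif read by several integrins. It had 4514 counts (255.9 CPM) with the SMC1A guide, against 456 counts (26.0 CPM) with the control guide. That is 9.85-fold higher, with a counting interval of 8.94 to 10.9. FN1 took 0.0268% of all counts with the SMC1A guide (exact interval 0.0260 to 0.0276) and 0.00249% with the control guide (0.00226 to 0.00272). Its log2 ratio of 3.30 ranked 29 among the 11319 genes. Per kilobase of exon, where levels of different genes can be compared, FN1 was at 14.8 CPM per kilobase with the SMC1A guide, next to ITGA5 at 14.6. With the control guide ITGA5 was at 11.5 CPM per kilobase and FN1 lay below ITGB5, which was at 2.14. Among the 10 genes FN1 was thus number 2 in level with the SMC1A guide and number 6 with the control guide. These places were the same with the longest transcript as gene length. By that length FN1 lay further above ITGA5 with the SMC1A guide, at 492.2 against 391.1 counts per kilobase. A table of counts per gene does not show which splice forms of fibronectin were made.

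The promoter of FN1 is shown with those of ITGAV and ITGA5, since FN1 and ITGAV were both called higher and ITGA5 encodes the main fibronectin-binding partner. Each is a RefSeq window (GRCh38.p14) from 250 bases before to 50 bases after the start, on the strand of the gene. Capitals mark matches on either strand to TGACGTCA (the cyclic AMP response element), TGANTCA (an AP-1 site) and CCAAT.
FN1, chr2:215436019-215436318, minus strand: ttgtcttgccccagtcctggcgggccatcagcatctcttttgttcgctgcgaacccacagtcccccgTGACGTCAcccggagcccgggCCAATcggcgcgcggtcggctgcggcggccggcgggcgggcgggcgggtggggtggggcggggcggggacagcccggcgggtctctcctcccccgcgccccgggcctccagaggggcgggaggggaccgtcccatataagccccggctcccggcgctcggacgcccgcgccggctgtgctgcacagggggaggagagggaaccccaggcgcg
ITGAV, chr2:186589806-186590105, plus strand: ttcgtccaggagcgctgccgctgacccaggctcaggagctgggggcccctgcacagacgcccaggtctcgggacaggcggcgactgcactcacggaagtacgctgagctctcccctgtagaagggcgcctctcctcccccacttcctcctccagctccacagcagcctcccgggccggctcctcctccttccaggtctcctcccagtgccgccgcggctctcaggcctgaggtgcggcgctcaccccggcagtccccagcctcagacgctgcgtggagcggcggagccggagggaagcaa
ITGA5, chr12:54419217-54419516, minus strand: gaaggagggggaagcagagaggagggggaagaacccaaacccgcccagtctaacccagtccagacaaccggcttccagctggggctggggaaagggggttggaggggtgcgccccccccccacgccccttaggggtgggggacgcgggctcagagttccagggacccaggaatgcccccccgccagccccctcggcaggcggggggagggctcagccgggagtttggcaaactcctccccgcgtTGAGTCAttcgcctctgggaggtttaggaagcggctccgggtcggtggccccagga

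The FN1 window held 1 copy of TGACGTCA, whose first base lay at -183 from the start, and 1 CCAAT, at -162. Of 35116 such windows over all genes, 1.85% held TGACGTCA and 34.6% held CCAAT. The ITGA5 window held 1 match to TGANTCA at -6, a motif present in 7.71% of windows. The ITGAV window held none of the 3. GGGCGG, the GC box, was found 6 times in the FN1 window, once in that of ITGA5 and nowhere in that of ITGAV, and in 45% of all windows. The motif AGATAA, bound by the GATA factor family, was in none of the 3 windows and in 10.3% of all. GC content was 76.7% for FN1, 69.3% for ITGA5 and 70.7% for ITGAV. The other ITGAV window in the table lies 10140 bases from the GENCODE start and held 1 AGATAA. Such matches describe the letters of these windows. The FN1 and ITGAV windows printed above shared none of the 5 motifs.

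COL3A1 (ENSG00000168542.17; chromosome 2, 188974320 to 189012746, plus strand) encodes the chain of type III collagen, a homotrimer of blood vessel walls and other stretchable tissue. It had 154 counts (8.73 CPM) with the SMC1A guide, against 2 counts (0.114 CPM) with the control guide. The ratio was 76.6, with a counting interval of 20.9 to 638.2. The control count lay below the 3 counts that a count of 0 allows, so the ratio is poorly bounded from above. Its log2 ratio of 5.68 ranked 5 of 11319. It varied between 4.50 and 6.09 over the settings tried, with the choice of prior count moving it most. Per length, COL3A1 was at 1.28 CPM per kilobase with the SMC1A guide, beside 14.8 for FN1 in the same library. Among the 10 genes it was number 7 with the SMC1A guide and number 10 with the control guide.

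COL1A2 (ENSG00000164692.19; chromosome 7, 94394561 to 94431232, plus strand) encodes the alpha-2 chain of type I collagen, which needs the product of COL1A1 to form its usual trimer. It had 42 counts (2.38 CPM) with the SMC1A guide and 70 counts (3.99 CPM) with the control guide, a log2 ratio of -0.73 with an interval of -1.33 to -0.17. COL1A1 had 233 counts (13.2 CPM) with the SMC1A guide and 64 counts (3.65 CPM) with the control guide, a log2 ratio of 1.84 (interval 1.45 to 2.28). The 2 chains of the same protein thus differed in opposite directions, and their intervals did not overlap. COL1A2 was past 2-fold lower only after the trend with expression level was removed, at -1.04.

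In the whole collagen family of 44 chains, 8 had at least 100 counts, of which 2 were called higher (COL3A1 and COL1A1) and 1 lower. Without COL3A1 and COL1A2, 1 of 6 was higher and 1 lower, beside 5.12% and 2.31% of all genes. COL3A1 and COL1A1 had most of their counts in the library with the SMC1A guide. With at least 500 counts 0 of 3 chains were higher and 1 lower, beside 2.36% and 1.65% of all such genes. The lower one was COL23A1, a membrane-anchored collagen, with 104 counts (5.90 CPM) with the SMC1A guide and 411 counts (23.4 CPM) with the control guide, a log2 ratio of -1.98 (interval -2.32 to -1.68). COL18A1, a basement membrane collagen, had the most counts of any chain, at 238.4 CPM with the SMC1A guide and 274.3 CPM with the control guide. COL6A5 was at 42.9 and 31.1 CPM in the same order (log2 ratio 0.46), and COL4A2 at 7.43 and 9.23 CPM (log2 ratio -0.31). The summed CPM of all collagen chains was 349.8 with the SMC1A guide and 362.2 with the control guide. COL18A1 made up most of both sums. Several chains under 100 counts had more counts with the SMC1A guide: COL6A1 (73 against 23), COL6A2 (29 against 8) and COL6A3 (55 against 20), the 3 main chains of type VI collagen, and COL5A2 (54 against 28). These 4 were named after their values were seen. Leaving out COL3A1 and COL1A2, the median log2 ratio of the 17 chains with at least 20 counts was 0.74, and that of all 14255 genes with at least 20 counts was -0.01. The median of the 6 chains with at least 100 counts was -0.025.

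ITGAV (ENSG00000138448.13; chromosome 2, 186590065 to 186680901, plus strand) was the integrin gene among the 10 that was called higher. It had 1310 counts (74.3 CPM) with the SMC1A guide and 501 counts (28.6 CPM) with the control guide. That is 2.60-fold higher (interval 2.35 to 2.89), with a log2 ratio of 1.38 that ranked 317 of 11319. Its whole counting interval lay past 2-fold, as did those of FN1 and COL3A1.

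ITGA5 (ENSG00000161638.11; chromosome 12, 54395261 to 54419460, minus strand) had 1954 counts (110.8 CPM) with the SMC1A guide and 1534 counts (87.4 CPM) with the control guide. Its log2 ratio was 0.34 (interval 0.24 to 0.44). ITGA4 (ENSG00000115232.14; chromosome 2, 181457202 to 181536187, plus strand) had 600 counts (34.0 CPM) with the SMC1A guide and 826 counts (47.1 CPM) with the control guide. Its log2 ratio was -0.47 (interval -0.62 to -0.32), so this chain stood lower while ITGAV and ITGA5 stood higher. ITGA6 (ENSG00000091409.16; chromosome 2, 172427354 to 172506282, plus strand) had 10 counts with the SMC1A guide and 3 with the control guide. Its ratio of 3.32 had an interval of 0.854 to 18.8, and a difference was not detectable at this depth.

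ITGB1 (ENSG00000150093.20; chromosome 10, 32900319 to 33005792, minus strand), the common beta chain, had the highest level per length of the 10 genes, 88.5 CPM per kilobase with the SMC1A guide and 57.1 with the control guide. It had 9384 counts (532.1 CPM) with the SMC1A guide and 6022 counts (343.2 CPM) with the control guide, a log2 ratio of 0.63 (interval 0.59 to 0.68). ITGB5 (ENSG00000082781.12; chromosome 3, 124761948 to 124901418, minus strand), the vitronectin receptor chain, had 335 counts (19.0 CPM) with the SMC1A guide and 242 counts (13.8 CPM) with the control guide. Its log2 ratio was 0.46 (interval 0.22 to 0.71). ITGB7 (ENSG00000139626.16; chromosome 12, 53191318 to 53207307, minus strand), the partner of ITGA4 in gut homing lymphocytes, had 15 counts with the SMC1A guide and 23 with the control guide. Its log2 ratio of -0.59 had an interval of -1.67 to 0.38, which includes no difference. The span of ITGB7 overlaps that of ZNF740 on the opposite strand, which had 762 and 954 counts in the same order, and the sources used here do not say whether counting used strand. The pseudogene row ITGB1P1 had 37 and 28 counts, few beside those of ITGB1.

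Within a library no scaling is needed to compare subunits, so their make-up was described per kilobase of exon. ITGA5 gave 52.1% of the summed alpha RNA of the 4 alpha genes with the SMC1A guide and 54.9% with the control guide. ITGAV gave 32.2% with the SMC1A guide and 16.6% with the control guide, and ITGA4 gave 15.3% and 28.4%. ITGAV and ITGA4 thus exchanged places as the alpha chain after ITGA5. ITGB1 gave 96.6% of the summed beta RNA with the SMC1A guide and 95.9% with the control guide. For each unit of ITGB1 there were 0.102 of ITGAV with the SMC1A guide and 0.0609 with the control guide, and 0.0486 and 0.104 of ITGA4. ITGA5 per ITGB1 was 0.165 with the SMC1A guide and 0.202 with the control guide. ITGAV per ITGB5 was 3.07 with the SMC1A guide and 1.63 with the control guide. ITGA4 per ITGB7 was 22.7 and 20.4, resting on 15 and 23 counts of ITGB7. These values are of RNA, not of receptor on the surface.

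**Figure D2:**
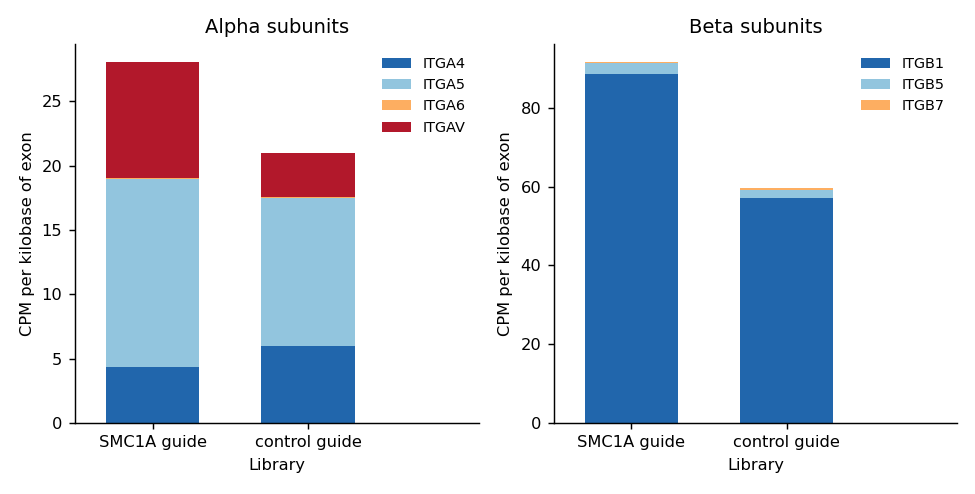
CPM per kilobase of exon of the 4 alpha genes (left) and 3 beta genes (right), stacked, with the SMC1A guide and then the control guide in each panel (1 library per guide, no error bars). ITGAV makes up 32.2% of the alpha RNA with the SMC1A guide and 16.6% with the control guide, and ITGB1 over 95% of the beta RNA in both.

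The other integrin genes were looked at to see whether the wider family differed in the same direction. Of all 26 subunit genes 9 had at least 100 counts, of which 4 were called higher and 0 lower, beside 5.12% and 2.31% of all genes. Without the 7 described subunits this was 3 of 4, and with at least 500 counts 1 of all 6, which was ITGAV. Outside the 7, the 1 subunit with at least 500 counts, ITGAE, was not called. Besides ITGAV the 4 were ITGA3, a laminin receptor chain, with 90 counts against 14 (log2 ratio 2.59), ITGA7, another laminin receptor chain, with 78 against 29 (1.39), and ITGA2B, the platelet fibrinogen receptor chain, with 116 against 47 (1.28). ITGA3, ITGA7 and ITGA2B reached 100 counts mainly through the library with the SMC1A guide, where each was higher. These 3 calls therefore cannot show whether the wider family differed. ITGAE, a partner of ITGB7, had 252 counts with the SMC1A guide and 262 with the control guide (-0.06). ITGA2B's partner ITGB3 had 20 and 23 counts in the same order. Of the leukocyte integrins, ITGAX had 45 counts with the SMC1A guide and 1 with the control guide, a ratio of 44.8 with a log2 interval of 2.93 to 10.8. Its obligate partner ITGB2 had 0 counts and 1 count. Both libraries had 0 counts in ITGA1, ITGA8, ITGA9, ITGA11, ITGAD, ITGB6 and ITGB8.

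**Figure D3:**
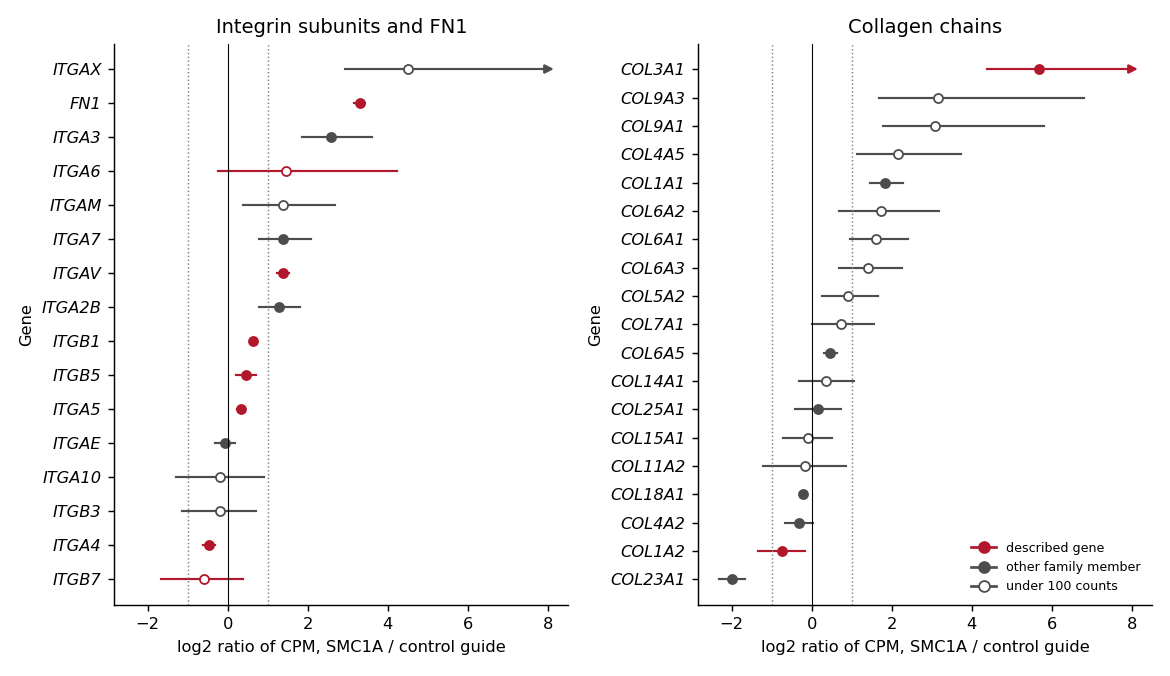
Log2 ratio of CPM, SMC1A guide over control guide, with its 95% counting interval, for FN1 and the integrin subunits (left) and collagen chains (right) with at least 20 counts, plus ITGA6. Red marks the 10 described genes, open points had under 100 counts, dotted lines mark 2-fold and arrowheads mark intervals that go on past 8. FN1 lies at 3.30 with a narrow interval, COL3A1 at 5.68 with a wide one, and COL1A1 and COL1A2 lie on opposite sides of 0.

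Genes that make, bind or degrade the matrix were taken from 10 lists, and their 260 genes other than the 10 above were summarised by counts. Of 119 with at least 100 counts, 27 were called higher (22.7%) and 7 lower (5.88%), beside 5.12% and 2.31% of all genes. The calls in each list below also use 100 counts and stand beside these same shares of all genes. At 500 counts or more, where fewer genes pass through a single library, 11 of 84 were higher and 5 lower, beside 2.36% and 1.65% of all 8423 such genes.

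Genes for basement membrane proteins, the laminins and their partners, had 4 of 8 called higher and 1 lower. With at least 500 counts this was 2 of 5 higher and 1 lower, beside 2.36% and 1.65% of all such genes. LAMC1, the gamma chain of most laminins, had 116 counts (6.58 CPM) with the SMC1A guide and 14 counts (0.798 CPM) with the control guide (log2 ratio 2.96). LAMB3 had 175 and 52 counts in the same order (1.72). HSPG2, which encodes perlecan, was the lower one, at 117.8 CPM with the SMC1A guide and 283.9 CPM with the control guide (-1.27), and LAMA4 was at -0.04. Other matrix glycoproteins had 5 of 7 higher and 0 lower, or 1 of 3 higher at 500 counts. VCAN, the proteoglycan versican, had 101 counts with the SMC1A guide and 8 with the control guide (3.50), and SPARC, a collagen-binding protein, had 333 and 64 (2.35). LAMC1 and VCAN reached 100 counts mainly through the library with the SMC1A guide. TNXB was at 0.60 and MFGE8, which links ITGAV receptors to dying cells, at -0.10. Vitronectin, the namesake ligand of the ITGAV receptors, had 9 counts with the SMC1A guide and 0 with the control guide. It was picked for mention with those counts in view.

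Genes that process collagen inside and outside the cell had 4 of 19 called higher and 0 lower, beside 5.12% and 2.31% of all genes. The list's median log2 ratio was 0.65. LOXL4, a lysyl oxidase that crosslinks collagen, was highest, at 15.8 CPM with the SMC1A guide and 1.03 CPM with the control guide (log2 ratio 3.87). It reached 100 counts mainly through the library with the SMC1A guide (278 counts against 18). P3H3 was 2.16-fold higher. Also past 2-fold were the prolyl hydroxylase gene P4HA1, at 1.08, and SERPINH1, the collagen chaperone, at 1.01, which were named after their values were seen. The log2 counting intervals of P4HA1 (0.936 to 1.218), SERPINH1 (0.928 to 1.090) and P3H3 (0.738 to 1.495) included values below 2-fold. With at least 500 counts 2 of 17 were higher and 0 lower, beside 2.36% and 1.65% of all such genes. MIA3 and BMP1 were at 0.01 and 0.11. Of 21 genes with at least 20 counts 20 lay above 0 on this scale, as did 7010 of all 14255 such genes. Among matrix proteases and inhibitors 0 of 8 were called in either direction, from MMP15 at -0.38 and ADAM8 at -0.25 to ADAM10 at 0.28 and ADAM9 at 0.44.

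Adaptors that switch integrins on and tie them to actin had 1 of 29 called higher and 3 lower and a median of -0.05, or 0.08 by library totals and 0.07 with the expression trend removed. The lower genes included PTK2B, the FAK-related kinase PYK2, at 31.8 CPM with the SMC1A guide and 75.6 CPM with the control guide (log2 ratio -1.25), and PXN, the scaffold paxillin, at -1.03. PXN was named after its value was seen. The higher gene was TNS2, a tensin, with 178 counts with the SMC1A guide and 25 with the control guide (2.78), while TES was at 0.82. TNS2 reached 100 counts mainly through the library with the SMC1A guide. Talin and kindlin, the direct activators of beta tails, lay near their control level, with TLN1 at -0.13 and FERMT3 at 0.06. These 2 were named after their values were seen. 

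Of other matrix receptors and integrin partners, 4 of 16 were called higher and 1 lower. LRP1, an endocytic receptor, was 4.36-fold higher. On the log2 scale the tetraspanin gene CD82 was at 1.61 and the syndecan genes SDC2 and SDC4 at -1.27 and -0.72. LRP1 (206 counts against 47) and CD82 (94 against 30) reached 100 counts mainly through the library with the SMC1A guide. With at least 500 counts 2 of 8 were higher and 0 lower, beside 2.36% and 1.65% of all such genes. Of cell-surface and soluble partners of integrins, 2 of 7 were higher and 1 lower, or 2 of 5 and 0 at 500 counts. PECAM1 was at 1.67, ICAM2 at 1.54, CCN1 at -0.40 and ICAM3 at -1.01. VCAM1, the ligand of ITGA4, had 0 counts in both libraries and was named after this was seen. In the TGF-beta pathway, which is known to induce fibronectin and collagen genes in many cells, 3 of 15 were higher and 0 lower. LTBP3, a latent TGF-beta binding protein, had 991 counts with the SMC1A guide and 213 with the control guide (2.21). TGFB3 was at 1.36, LTBP1 at -0.36 and the receptor gene TGFBR1 at -0.62. TGFB3 (97 counts against 37) reached 100 counts mainly through the library with the SMC1A guide. With at least 500 counts 2 of 11 genes of this pathway were higher and 0 lower.

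**Figure D4:**
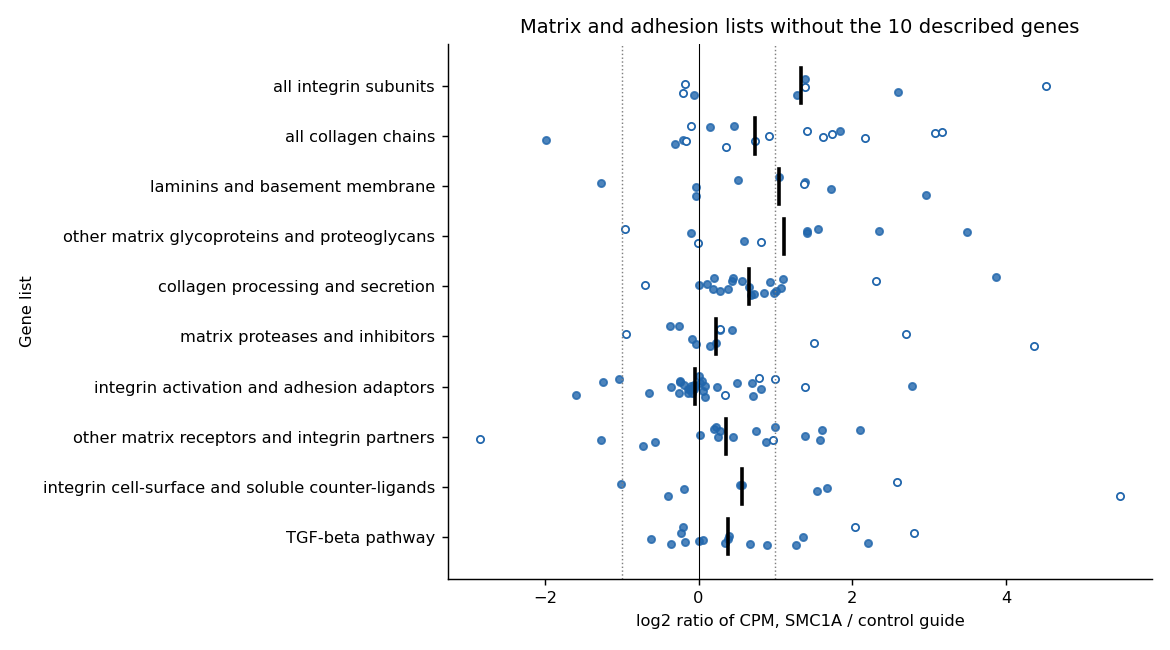
Log2 ratio of CPM, SMC1A guide over control guide, for each gene with at least 20 counts in the 10 matrix and adhesion lists, leaving out the 10 described genes. Filled points had at least 100 counts, open points fewer, black bars are list medians and dotted lines mark 2-fold. The place of a gene with 0 control counts depends on the prior count. The medians of laminins (1.05) and other glycoproteins (1.11) lie to the right and that of adhesion adaptors (-0.05) at 0.

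Because collagen and fibronectin are made by fibroblasts, markers of other cell types were measured beside them. Of 12 fibroblast markers, which include COL3A1 and COL1A2, 5 had 0 counts with the SMC1A guide and 7 with the control guide. PDGFRA, LUM, THY1, POSTN and FAP were at 0 in both. The summed level of the list was 28.2 CPM with the SMC1A guide and 9.01 CPM with the control guide, and without COL3A1 and COL1A2 it was 17.1 and 4.90 CPM. Of 8 endothelial markers 6 had 0 counts with the SMC1A guide and 5 with the control guide, VWF and CDH5 among them in both, and their sum, mostly PECAM1, was 45.6 and 14.0 CPM. Of 11 megakaryocyte markers 5 were at 0 with the SMC1A guide and 6 with the control guide, with sums of 100.6 and 51.7 CPM. PF4 and GP9 were at 0 in both. Of the 4 with at least 100 counts 3 were called higher, beside 5.12% of all genes. They were TUBB1 (409 counts against 108), GP6 (626 against 207) and ITGA2B (116 against 47). ITGA2B reached 100 counts mainly through the library with the SMC1A guide. GP1BB, the other of the 4, was not called (581 against 522), and ITGB3 had 20 counts against 23. PPBP had 23 counts with the SMC1A guide and 0 with the control guide, and the list's median log2 ratio was 1.43. Monocyte markers summed to 60.2 and 43.6 CPM and lymphoid markers to 27.7 and 19.2 CPM, each with the SMC1A guide first. The part of such cells or programmes in the FN1 and COL3A1 values was not tested. Epithelial markers summed to 1193 CPM with the SMC1A guide and 1199 CPM with the control guide. Nearly all of both sums came from KRT8 (log2 ratio 0.29), KRT18 (-0.25), KRT19 (-0.14) and EPCAM (-0.57). ITGB6 had 0 counts in both libraries, and CDH1, ITGB4 and CLDN4 had few. In RNA of a whole culture, more cells with a transcript and more transcript per cell cannot be told apart. The 10 K562 and erythroid markers were all detected. Of these 4 were called lower and 0 higher, beside 2.31% and 5.12% of all genes. The lower ones were the globin genes HBG1 (log2 ratio -1.50), HBG2 (-1.68) and HBZ (-1.56) and the transferrin receptor gene TFRC (-1.41). HBE1, another globin gene, had 182513 counts with the SMC1A guide and 118510 with the control guide. The list's median log2 ratio was -0.44, and its summed level was 13397 CPM with the SMC1A guide and 14561 CPM with the control guide. The markers named in these lists were picked with their counts in view.

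The positions of the genes were compared, since cohesin folds neighbouring DNA. Of the 10 genes 5 lie on the long arm of chromosome 2, in the order ITGA6, ITGA4, ITGAV, COL3A1 and FN1, with gaps of 8.95, 5.05, 2.29 and 26.4 Mb. All 3 called genes are among them. On chromosome 2, 5.39% of 742 genes with at least 100 counts were called higher and 2.43% lower, close to the share of all genes. Protein-coding neighbours within 500 kb of a described gene numbered 48 with at least 100 counts. Of these 5 were called higher and 0 lower, beside 4.78% and 2.15% of all protein-coding genes, with a median log2 ratio of -0.06. All 5 had most of their counts in the library with the SMC1A guide, which helped them to reach 100 counts. These calls therefore cannot show whether neighbours were higher more often than other genes. With at least 500 counts 1 neighbour was called higher, beside 2.36% of all such genes.

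None of the 5 higher neighbours lay beside a called gene. FN1 had 1 tested neighbour, COL3A1 2 and ITGAV 1, while ITGB7 had 20 and ITGA5 12. So few neighbours of the called genes cannot show whether their surroundings differed. ATIC, which ends 10.7 kb from FN1 and was its 1 measured neighbour, had 3947 counts with the SMC1A guide and 4761 with the control guide (log2 ratio -0.28). Beside COL3A1, GULP1 was at 0.86 and WDR75 at -0.45, 378.4 and 428.7 kb away. COL5A2, 19.1 kb away, had 54 counts with the SMC1A guide and 28 with the control guide, too few for a call. Beside ITGAV, ZC3H15, 80.7 kb away, was at -0.35, and FAM171B, 13.1 kb away, had 11 counts with the SMC1A guide and 1 with the control guide. The higher neighbours were TNS2 (2.78) and MAP3K12 (2.73) near ITGB7, KALRN (2.15) near ITGB5, and HOXC12 (1.44) and HOXC6 (1.40) near ITGA5. They were named after their values were seen, as were COL5A2 and FAM171B.

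**Figure D5:**
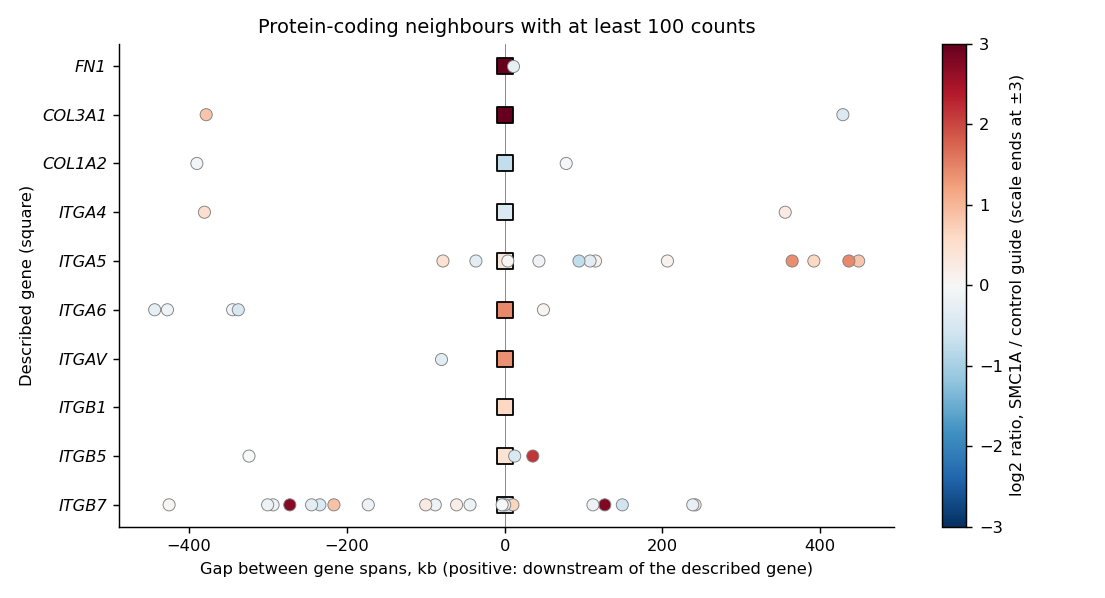
Gap in kb between each described gene (square at 0) and the protein-coding genes with at least 100 counts within 500 kb (circles), coloured by log2 ratio, SMC1A guide over control guide, on a scale that ends at 3 in either direction. Positive gaps lie downstream of the described gene. FN1, COL3A1 and ITGAV are red with pale neighbours, and the dark red circles lie beside ITGB7 and ITGB5.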

How the data were processed

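Estimated counts, in whole numbers and unscaled, were deposited by the authors as 1 table with a row per gene, for 1 library with the SMC1A guide and 1 with the control guide. The tools named, per the submitters' processing notes, are DESeq2 1.42.1, Salmon 1.10.1 and STAR 2.7.10a, and the build is hg38 (GRCh38). Tool roles, annotation and strand use are not stated in the sources used. Symbols came from a table of gene identifiers, and coordinates, gene types and exon lengths from GENCODE 29 (GRCh38), where 98% of genes past the count minimum were found. The 2 reporter rows were left out of calls but kept in library totals.

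Libraries were scaled by TMM over the whole table (edgeR 4.0.16, R 4.3.3). Log2 ratios used a prior count of 1, and intervals are exact Clopper-Pearson intervals of the ratio of counts. Since PCR copies carry no molecular identifier, counts are not independent molecules, and intervals and floors cover counting error only. Calls meant past 2-fold among genes with at least 100 counts, and list medians used genes with at least 20 counts. All 10 genes were named, and in each list the 2 highest and 2 lowest other genes with at least 100 counts. The nearest measured neighbours were also named. One list gene that this rule names is not reported here. The genes and lists were chosen with earlier results of these data known. The steps were checked on counts drawn from the real means. Other tools were Python 3.11.15, numpy 2.4.6, scipy 1.17.1, pandas 2.3.3 and DESeq2 1.42.0 for its size factors.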

Additional observations from a re-analysis of the deposited data

How the results depend on the processing

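Every one of the 10 genes kept the sign of its log2 ratio under the 4 other scalings, prior counts of 0.25 and 5 and removal of the expression trend. Scaling by library totals raised the median of all genes with at least 100 counts by 0.13. It turned the split of called genes to 766 higher and 194 lower (79.8% higher, against 68.8% of 579 and 262). Calls of higher genes among the 10 stayed within 1.5 times of 3, and 1 was lower with the trend removed or at 1.5-fold. Of the list genes, in place of 27 higher and 7 lower, 45 were higher at 20 counts, 11 at 500 counts, 71 with no filter, 42 at 1.5-fold and 8 at 4-fold. Lower ones were 16 with no filter, 0 at 4-fold and 4 when the whole interval had to lie past 2-fold. Of the neighbours, in place of 5 higher and 0 lower, 9 were higher at 20 counts, 1 at 500 counts, 16 with no filter, 10 at 1.5-fold, 3 at 4-fold and 3 by the whole interval, and 2 were lower with no filter or at 1.5-fold. With the longest transcript as gene length, with the SMC1A guide and then the control guide, ITGA4 per ITGB1 was 0.0578 and 0.124, ITGAV per ITGB1 0.0751 and 0.0448, and ITGAV per ITGB5 2.43 and 1.29. Their causes were not tested. No paired analysis was possible because each guide had 1 library, and leaving out a library was not possible for the same reason.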
